A study of Mus musculus with 14 samples.

Results

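The collagen genes of mouse granulosa cells (GCs) were examined as a family of 44 protein-coding genes, taken from the 55414 genes of the count table by their symbols (Col, a type number, a and a chain number). The annotation gave 21627 of the genes in the table as protein coding. The family comprised 11 fibrillar genes, 6 basement membrane genes of type IV, 6 beaded filament genes of type VI, 9 fibril-associated genes (FACIT), 3 short-chain network genes, 2 multiplexins, 4 transmembrane collagens and 3 genes of anchoring fibrils and other types. No member was left out, and no member was at 0 counts in every library.

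GCs came from antral follicles of female mice kept to 12 weeks of age per the study's methods. The db model comprised 4 libraries from B6.BKS(D)-Leprdb/J mice homozygous for the Lepr mutation (db/db), which lack the long leptin receptor, and 4 from lean littermates (CT db). The ob model comprised 3 libraries from B6.Cg-Lepob/J mice homozygous for the Lep mutation (ob/ob), which make no functional leptin, and 3 from lean littermates (CT ob). The labels call the controls wild type while the column names of the table read as heterozygous, and this was not settled here. Both mutations are carried in the germ line, so they are present in every cell of the body and not in GCs alone. Each library pooled about 50 cells released by puncture of the follicles, and no source used here says which libraries came from separate animals, so p-values measure the spread between these libraries. Libraries are named by a letter within their group in the order of the table.

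Collagens are secreted proteins built of alpha chains wound into a helix, often from chains encoded by different genes, so that the amounts of partner chains matter for what can be assembled. Fibrillar collagens form the tensile fibres of connective tissue, and FACIT collagens sit on the surface of those fibres. Type IV collagen forms the sheet-like network of basement membranes, type VI forms beaded filaments near cells, and type XVIII is a basement membrane collagen whose end fragment is endostatin. In the ovary GCs rest on a follicular basal lamina that contains type IV collagen, while fibrillar collagens are mainly made by theca and stromal cells outside it.

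Libraries held 2204686 to 8367593 counts on genes. Totals were 2204686 to 3059777 in db/db against 3624237 to 4840714 in CT db. They were 5306632 to 8367593 in ob/ob against 3664219 to 4847166 in CT ob. Within either model the totals did not overlap, so depth went with genotype. Its part in the mutant comparisons was not tested. The 3 counts taken as the smallest sign of detection stood for 0.371 to 1.31 CPM (counts scaled to a common library total, with the trimmed mean of M values, TMM), and such limits cover counting error only. All 8 granulosa markers examined, Fshr, Cyp19a1 and Foxl2 among them, reached 3 counts in each of the 14 libraries, with summed levels between 5036 and 12051 CPM. Oocyte markers summed to 2.54 to 944 CPM. The theca list summed to 208 to 1373 CPM, of which Hsd3b1 made up 1291 CPM in the highest library, while the theca hormone Insl3 was at 0 counts in all 7 control libraries. All 6 theca markers, Insl3 among them, reached 3 counts in libraries A and B of db/db and library C of ob/ob. Another of them, Cyp17a1, was at 257 CPM in library A of db/db, against 0.428 to 31.0 CPM in CT db. In pooled cells, fewer cells of a type and less RNA per cell cannot be told apart.

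Of the 44 collagen genes, 11 reached 3 counts in every library, 31 did so in some libraries, and Col8a2 and Col9a1 stayed under 3 counts in each. The genes seen throughout were Col1a2, Col4a3, Col4a4, Col4a5, Col4a6, Col6a1, Col6a3, Col9a2, Col11a1, Col16a1 and Col27a1. The number of members at 3 counts or more ranged from 15 in db/db C to 33 in ob/ob A. After thinning every library to 2204686 counts, it ranged from 15 in db/db C and ob/ob B to 28 in CT ob B. A filter on low counts left 11 members for testing in the db model, 21 in the ob model and 19 in the fit of all 14 libraries, and 23 members passed in none of these fits. A member could pass through the group in which it was high, so counts over the members tested describe those genes and not the family.

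**Figure D1:**
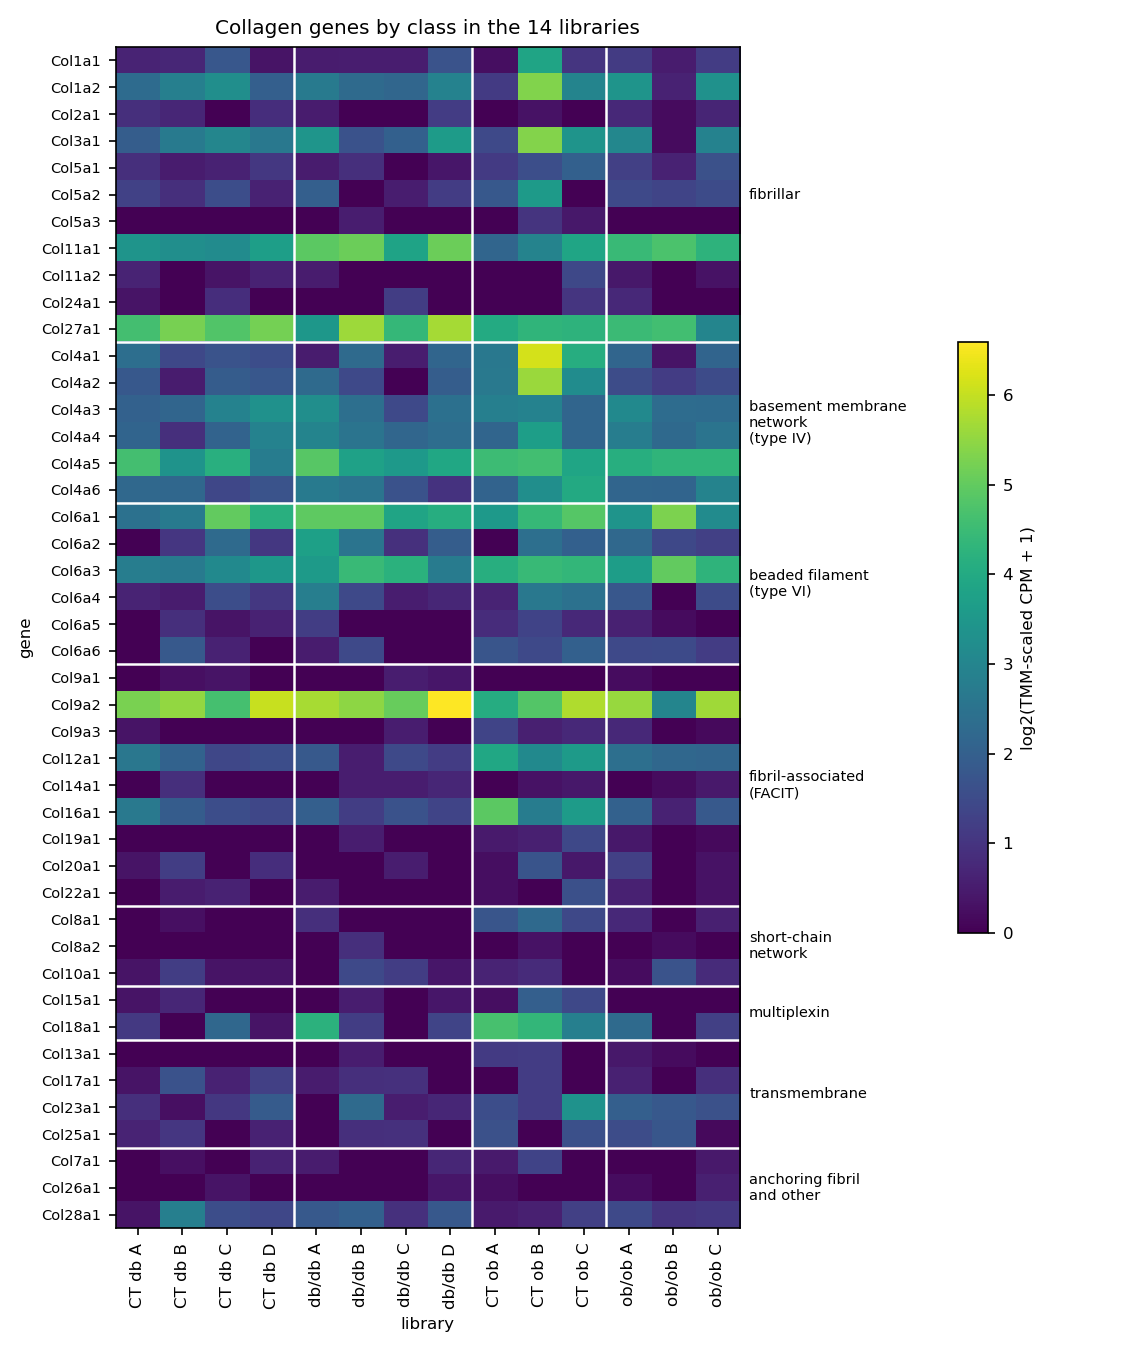
Levels of all 44 collagen genes (rows, ordered by class) in the 14 libraries (columns, by group) on the log2(CPM + 1) scale, where brighter cells are higher. Col9a2, Col27a1, Col4a5, Col6a1 and Col11a1 are bright across the libraries, Col4a1 and Col4a2 are brightest in library B of CT ob, and most transmembrane and short-chain members are dark.

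Levels were compared between genes per kilobase of exon. The lean controls differed from each other for several members, so the order over all 7 libraries is given first and then that in each control group. Over the 7 libraries Col9a2, a chain of the fibril-associated type IX, had a mean of 12.4 ± 5.61 CPM per kb (SD, n = 7). Col6a1, a chain of type VI, followed at 2.86 ± 1.80 and Col4a1, the alpha 1 chain of type IV, at 1.95 ± 3.37 CPM per kb. Next were Col27a1, a fibrillar collagen of cartilage growth zones, at 1.93 ± 0.66 and Col4a5, a minor chain of type IV, at 1.75 ± 0.75 CPM per kb. The lowest control library of Col9a2, at 5.16 CPM per kb, lay below the highest of Col6a1 at 5.38, so even these neighbours in the order overlapped. Col4a2, Col16a1, Col18a1, Col6a3 and Col3a1 completed the 10 highest, with means from 1.004 to 1.39 CPM per kb, and the other 34 members had means of 0.783 CPM per kb or less. In CT db the order was Col9a2, Col6a1, Col27a1, Col4a5 and Col11a1, at means of 13.8, 2.50, 2.37, 1.48 and 0.747 CPM per kb, and Col4a1 (0.338), Col4a2 (0.286), Col16a1 (0.406) and Col18a1 (0.177) were lower. In CT ob the order was Col9a2, Col4a1, Col6a1, Col4a2 and Col18a1, at means of 10.6, 4.10, 3.35, 2.86 and 2.38 CPM per kb. Single CT ob libraries carried some of these ranks. Without library B of CT ob the mean over the other 6 controls was 0.701 CPM per kb for Col4a1, 0.507 for Col4a2 and 0.521 for Col3a1, and without library A it was 0.664 for Col16a1 and 0.725 for Col18a1.

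Several members stood at levels unlike those of the chains they are known to pair with. Type IX is built from the alpha 1, alpha 2 and alpha 3 chains, and Col9a2 held 50 to 395 counts per library while Col9a1 held 0 to 1 and Col9a3 held 0 to 8. Col9a2 was above both partners per kb in 14 of 14 libraries. Type XI combines Col11a1 with Col11a2 and a chain made from Col2a1 in cartilage. Col11a1 held 18 to 182 counts per library, Col11a2 held 0 to 5 and Col2a1 held 0 to 5, and Col11a1 was above each of them per kb in 14 of 14 libraries. In type VI, Col6a1 was above its partner Col6a2 per kb in 14 of 14 libraries, at 16 to 272 counts against 0 to 29. In type I, the main fibrillar collagen, Col1a2 was above Col1a1 per kb in 13 of 14 libraries.

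**Figure D2:**
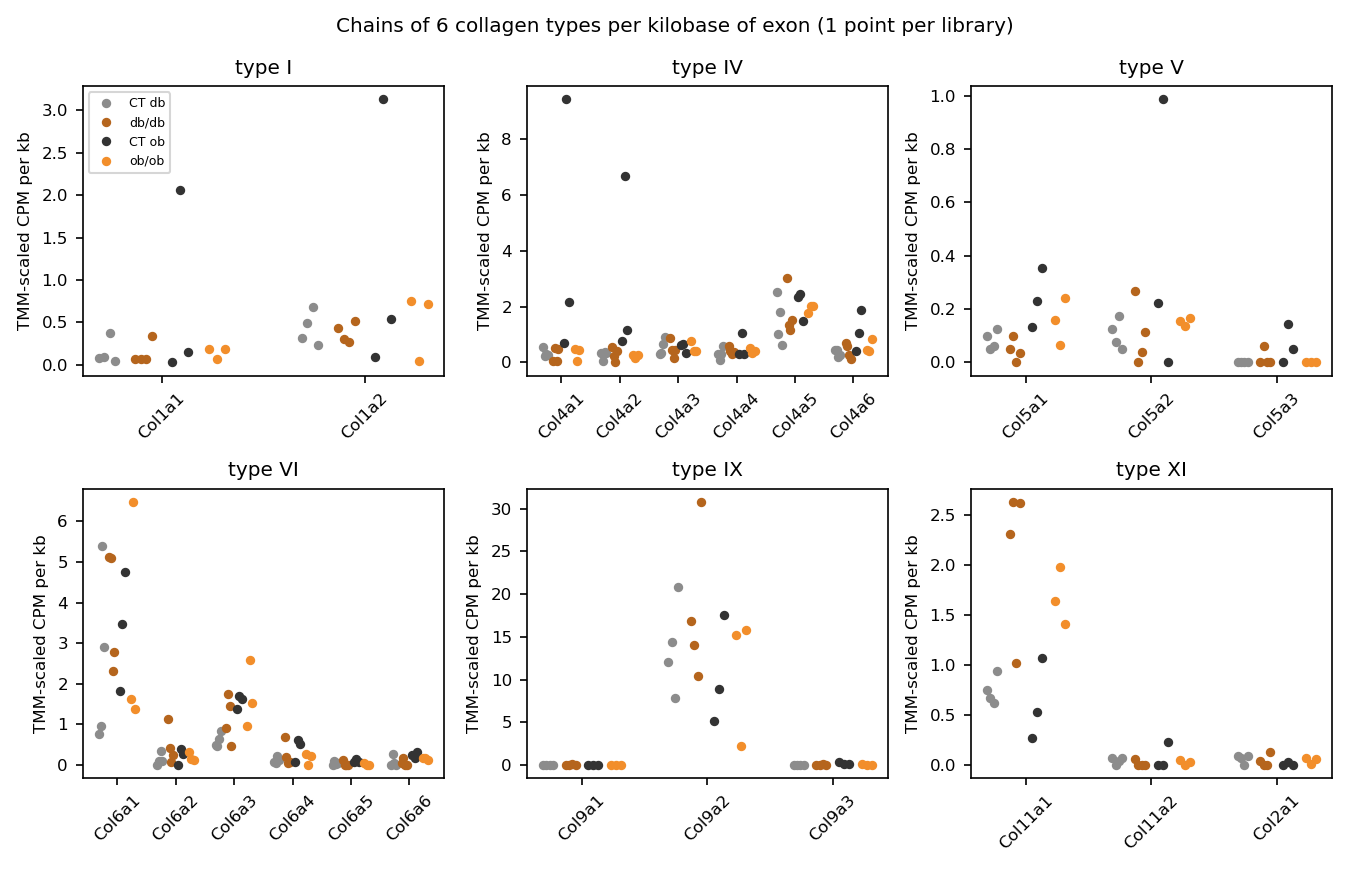
CPM per kb of exon of the chains of types I, IV, V, VI, IX and XI, with 1 point per library coloured by group. Col9a2, Col11a1 and Col6a1 lie above their partner chains, and the highest points of Col1a1, Col1a2, Col4a1, Col4a2 and Col5a2 belong to 1 CT ob library (library B).

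The 6 type IV chains are encoded by head-to-head pairs, Col4a1 with Col4a2, Col4a3 with Col4a4 and Col4a5 with Col4a6, and assemble into a common network of alpha 1 and alpha 2 and into restricted networks of alpha 3 to alpha 6. In GRCm39 the annotated starts of Col4a1 and Col4a2 on chromosome 8 overlap by 318 bases and those of Col4a3 and Col4a4 on chromosome 1 by 104 bases, while 1281 bases separate Col4a5 and Col4a6 on chromosome X, all measured from the canonical transcripts. The strand setting of the counting was not given in the sources used here, so reads in the overlaps may have been shared or dropped. Col4a5 made up 20.7% to 55.8% of the type IV level per kb in CT db, 37.8% to 59.0% in db/db and 41.7% to 59.8% in ob/ob, and it made up 45.8%, 11.6% and 20.1% in libraries A to C of CT ob. Col4a1 and Col4a2 together made up 13.3% to 20.5% in CT db, 2.95% to 26.1% in db/db and 6.24% to 17.3% in ob/ob. In CT ob their share was 28.2%, 75.4% and 45.2% in libraries A to C, above that of each of the other 11 libraries.

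The db model addressed how collagen genes stood in GCs without the long leptin receptor. Summed over all 44 members, CT db reached 168.7 ± 19.7 CPM against 224.8 ± 61.0 for db/db (SD, n = 4 each), and the log2 ratio of mutant to control was 0.41 beside a pooled SD of 0.35 between libraries on that scale. With edgeR's quasi-likelihood test and Benjamini-Hochberg adjustment, 0 of the 11 members tested were called at an adjusted p of 0.05, where 0.00884% of all genes tested were called. Unadjusted p-values under 0.05 were found for 2 members, Col11a1 and Col6a3, beside 7.59% of all genes. DESeq2 called 1 member, Col11a1, beside 0.389% of all genes. The median log2 fold change was 0.36 for the 11 members and 0.01 for all genes.

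Col11a1, which lies on chromosome 3 from 113824134 to 114014367 (GRCm39, plus strand), encodes the alpha 1 chain of the minor fibrillar type XI, known for setting fibril diameter. It was at 29.6, 33.7, 13.1 and 33.6 CPM in db/db libraries A to D and at 9.61, 8.56, 8.004 and 12.1 CPM in CT db. The 4 mutant libraries were above the 4 control libraries, with library C of db/db close to the highest control. The log2 fold change was 1.52 (SE 0.29) with an edgeR adjusted p of 0.363 and a DESeq2 adjusted p of 0.00485. An exact permutation test of the CPM gave a two-sided p of 0.0286, the smallest that 4 against 4 libraries allow. Without library C of db/db the log2 fold change was 1.75 and edgeR called it at an adjusted p of 0.0360. That was 1 call among 8 fits that each left out 1 library. Over these fits the log2 fold change ranged from 1.41 to 1.75 and the edgeR adjusted p reached 0.900. Col11a1 was the 1 member of 11 whose groups did not overlap, where 4.14% of all genes tested showed no overlap.

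Col6a3, the long chain of type VI, was at 11.1, 21.2, 17.4 and 5.65 CPM in db/db and at 5.93, 5.57, 7.73 and 10.1 CPM in CT db. Library D of db/db lay within the control range, so the groups overlapped. Its log2 fold change was 0.90 (SE 0.39, edgeR adjusted p = 0.641). The other 9 members tested, the most abundant ones among them, had edgeR adjusted p-values of 0.806 or more.

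Col9a2 was at 52.3, 43.7, 32.2 and 95.5 CPM in db/db and at 37.3, 44.7, 24.3 and 64.7 CPM in CT db, with a log2 fold change of 0.39 (SE 0.34). Library D was the highest of its group in either genotype, and the groups overlapped over most of their range. Col27a1 was at 10.3, 48.0, 20.02 and 51.2 CPM in db/db and at 23.4, 36.8, 26.8 and 36.2 CPM in CT db, with a log2 fold change of 0.07 (SE 0.40). Its mutant libraries lay on either side of the controls. Col6a1 was at 30.0, 29.8, 13.5 and 16.3 CPM in db/db and at 4.52, 5.57, 31.5 and 17.0 CPM in CT db, with a log2 fold change of 0.61 (SE 0.53). Libraries A and B of CT db were the lowest, and library C of CT db was the highest of the 8. Col4a5 was at 28.3, 12.5, 10.9 and 14.1 CPM in db/db and at 23.4, 9.42, 16.8 and 5.76 CPM in CT db, with a log2 fold change of 0.25 (SE 0.42).

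The ob model addressed the same genes in GCs of mice without leptin. Summed over all members, CT ob reached 303.1 ± 119.5 CPM against 187.0 ± 15.2 for ob/ob (SD, n = 3 each), and the log2 ratio of mutant to control was -0.70 beside a pooled SD of 0.41. Without library B of CT ob the log2 ratio was -0.35. With edgeR, 0 of the 21 members tested and 0.0% of all genes were called. Unadjusted p-values under 0.05 were found for 6 members, beside 8.16% of all genes, with Col4a1, Col4a2, Col12a1, Col16a1 and Col18a1 at lower fitted levels in ob/ob and Col11a1 at a higher one. DESeq2 called 3 members lower in ob/ob, Col4a2, Col16a1 and Col18a1, beside 0.692% of all genes. The groups did not overlap for the same 6 genes, 5 below and 1 above, where 15.8% of all genes tested showed no overlap. The median log2 fold change was -0.57 for the 21 members and -0.04 for all genes. Among the 10 members with at least 10 counts in every library of the model it was -0.059, beside -0.033 for all such genes.

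**Figure D3:**
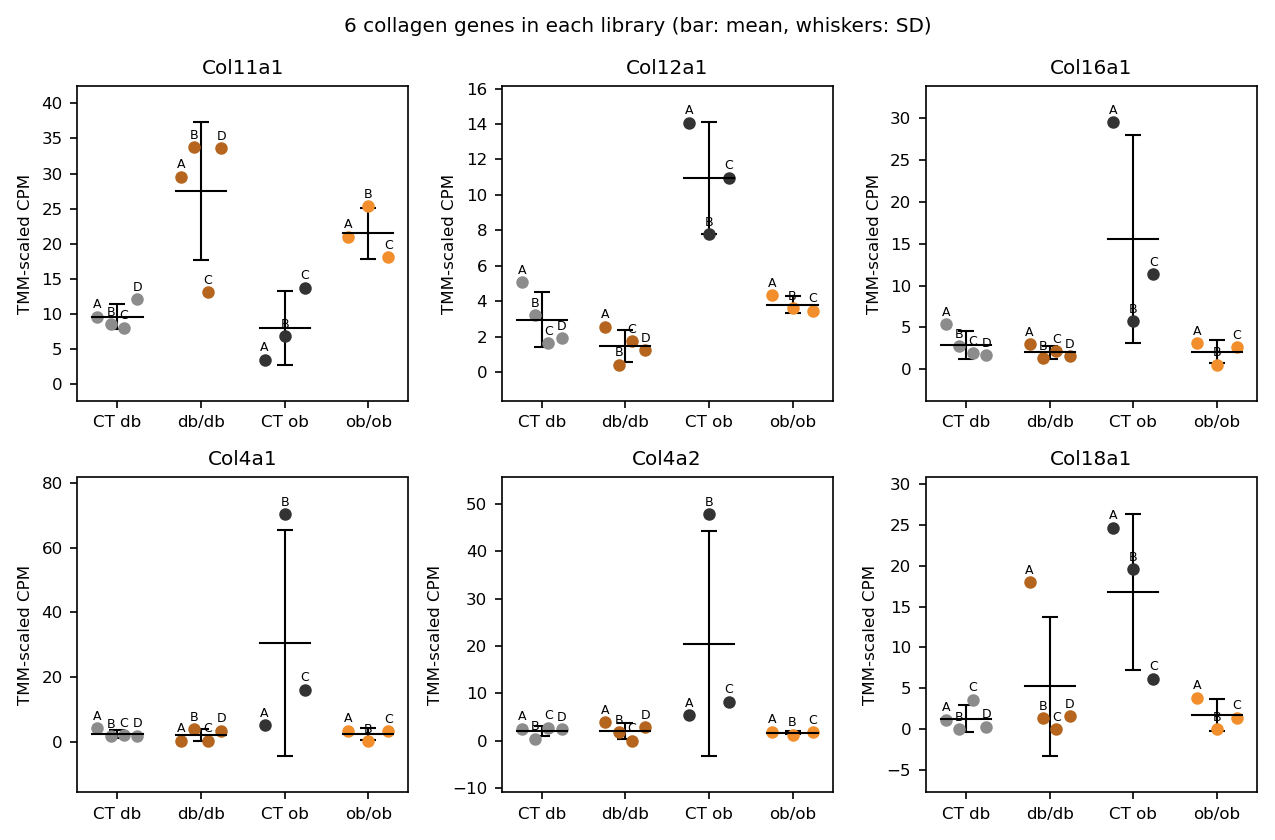
CPM of 6 collagen genes in each library, with letters naming the libraries, bars the group means and whiskers the SD (n = 4 for CT db and db/db, n = 3 for CT ob and ob/ob). Col11a1 is higher in the mutants of either model than in their own controls, and the other 5 genes are highest on average in CT ob, with Col4a1 and Col4a2 carried by library B and Col16a1 by library A.

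The bases upstream of Col11a1, Col12a1 and Col16a1 are shown as examples of members that edgeR or DESeq2 called in some comparison. Col4a1, Col4a2, Col6a3 and Col18a1 were called too and are not shown. Each window holds the 250 bases before the annotated start in GRCm39, written 5' to 3' on the gene's strand, and contains no annotated exon. Capitals mark matches to CCAAT, to the GC box GGGCGG or to TATAAA on either strand, so ATTGG and CCGCCC are the same motifs read on the opposite strand.
Col11a1 (chr3:113823884-113824133, plus strand): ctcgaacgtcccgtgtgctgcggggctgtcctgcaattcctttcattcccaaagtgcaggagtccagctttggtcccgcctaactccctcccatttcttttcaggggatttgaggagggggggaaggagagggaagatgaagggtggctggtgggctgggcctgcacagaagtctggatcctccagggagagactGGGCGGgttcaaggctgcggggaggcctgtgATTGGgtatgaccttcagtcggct
Col12a1 (chr9:79626136-79626385, minus strand): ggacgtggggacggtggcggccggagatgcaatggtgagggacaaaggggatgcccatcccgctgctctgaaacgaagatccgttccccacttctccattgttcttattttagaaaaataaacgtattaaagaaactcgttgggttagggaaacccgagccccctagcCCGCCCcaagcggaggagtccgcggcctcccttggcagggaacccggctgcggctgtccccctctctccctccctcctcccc
Col16a1 (chr4:129940904-129941153, plus strand): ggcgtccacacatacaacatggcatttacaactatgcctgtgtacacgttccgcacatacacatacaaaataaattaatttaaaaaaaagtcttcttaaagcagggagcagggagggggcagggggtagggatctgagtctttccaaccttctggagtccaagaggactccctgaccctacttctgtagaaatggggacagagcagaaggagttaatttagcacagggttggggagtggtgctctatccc

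The window of Col11a1 held GGGCGG on its own strand at 55 to 50 bases before the start and CCAAT on the opposite strand at 24 to 20 bases. That of Col12a1 held GGGCGG on the opposite strand at 82 to 77 bases, and that of Col16a1 held none of the 3 motifs. Among 21751 protein-coding genes of the annotation, windows of the same length held CCAAT in 36.5%, GGGCGG in 36.3% and TATAAA in 11.9%. Guanine and cytosine made up 59.6% of the window of Col11a1, 60.0% of that of Col12a1 and 47.2% of that of Col16a1. These matches are descriptions of the sequence and were not tied to any factor.

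Col11a1 was at 21.0, 25.3 and 18.1 CPM in ob/ob and at 3.47, 6.77 and 13.7 CPM in CT ob. The 3 mutant libraries were above the 3 controls. The log2 fold change was 1.45 (SE 0.47) with an edgeR adjusted p of 0.561 and a DESeq2 adjusted p of 0.164, and 3 against 3 libraries cannot go below 0.1 in an exact permutation test, the value found. The 7 mutant libraries of the 2 models ranged from 13.1 to 33.7 CPM and the 7 controls from 3.47 to 13.7 CPM, so they met at library C of db/db and library C of CT ob. The difference between the models' effects had a log2 value of -0.06 (SE 0.56, edgeR adjusted p = 0.988).

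Col4a1 and Col4a2, which encode the common chains of basement membrane collagen, were lower in each ob/ob library than in each CT ob library. Col4a1 was at 3.47, 0.278 and 3.34 CPM in ob/ob and at 5.21, 70.5 and 16.1 CPM in CT ob, and Col4a2 was at 1.91, 1.25 and 1.86 CPM in ob/ob and at 5.40, 47.9 and 8.23 CPM in CT ob. Library B of CT ob was far above the other control libraries for either gene, with 281 counts of Col4a1 and 191 of Col4a2. The log2 fold change was -3.69 (SE 1.05) for Col4a1, with adjusted p-values of 0.539 by edgeR and 0.189 by DESeq2. It was -3.61 (SE 0.85) for Col4a2, with adjusted p-values of 0.539 by edgeR and 0.00209 by DESeq2. Without library B of CT ob the log2 fold changes were -2.15 and -2.002.

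Col16a1, a fibril-associated collagen on chromosome 4 from 129941154 to 129993076, was at 3.13, 0.557 and 2.60 CPM in ob/ob and at 29.5, 5.77 and 11.3 CPM in CT ob. Here library A of CT ob was the highest, and the groups did not overlap. On the log2 scale the fold change was -2.90 (SE 0.76), with adjusted p-values of 0.539 by edgeR and 0.0173 by DESeq2, and was -2.02 without library A of CT ob. Col12a1, another fibril-associated collagen, on chromosome 9 from 79506268 to 79626135, was at 4.34, 3.62 and 3.47 CPM in ob/ob and at 14.1, 7.77 and 11.0 CPM in CT ob. The highest mutant library was below the lowest control library. Its log2 fold change was -1.52 (SE 0.38), with adjusted p-values of 0.539 by edgeR and 0.0846 by DESeq2.

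Col18a1, the gene of type XVIII, was at 3.82, 0 and 1.36 CPM in ob/ob and at 24.7, 19.6 and 6.18 CPM in CT ob. The 3 control libraries were above the 3 mutant libraries, of which library B had 0 counts. The fitted log2 fold change was -3.32 (SE 0.998), with adjusted p-values of 0.555 by edgeR and 0.0338 by DESeq2. For each of these 5 genes the exact permutation test of the CPM gave a two-sided p of 0.1, the smallest that 3 against 3 libraries allow.

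For the other 15 members tested, ob/ob and CT ob overlapped. Col4a5 was at 16.5, 18.9 and 18.9 CPM in ob/ob and at 22.0, 23.1 and 13.7 CPM in CT ob (log2 fold change -0.12, SE 0.28, edgeR adjusted p = 0.924). Col6a1 had a log2 fold change of -0.08 (SE 0.62), Col9a2 of 0.08 (SE 0.68) and Col27a1 of -0.02 (SE 0.43), each with overlapping groups. Col1a2 and Col3a1, the fibrillar genes of types I and III, were at 39.6 and 40.1 CPM in library B of CT ob and at no more than 9.61 CPM in the other 5 libraries of that model.

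**Figure D4:**
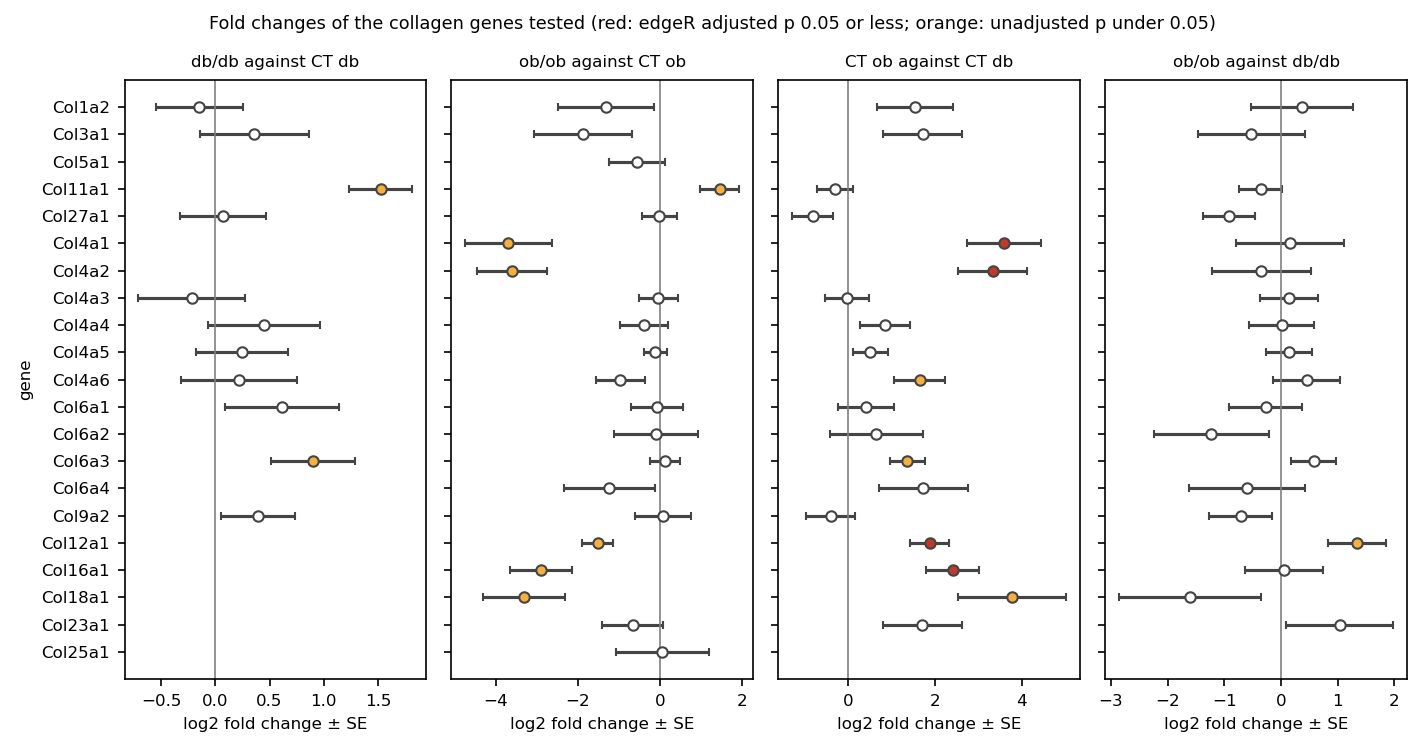
Log2 fold changes with SE of the collagen genes tested in 4 comparisons, where red points had an edgeR adjusted p of 0.05 or less and orange points an unadjusted p under 0.05. The red points are Col4a1, Col4a2, Col12a1 and Col16a1 in CT ob against CT db, and the comparison of ob/ob against db/db holds no red point.

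The lean controls of the models were compared with each other in the fit of all 14 libraries, since the mutant comparisons rest on them. The ob and lean control comparisons share the CT ob libraries, so their values for the same gene are not independent. Of the 19 members tested, edgeR called 4, where 6.63% of all genes were called, and all 4 rose in CT ob against CT db, where 2.24% of all genes did. These were Col4a1, Col4a2, Col12a1 and Col16a1. All 4 passed the filter on low counts in the ob model and not in the db model. Their number and direction therefore describe these genes and not the family. Unadjusted p-values under 0.05 were found for 7 members, which add Col6a3, Col18a1 and Col4a6, beside 26.9% of all genes. DESeq2 called 5 members, the 4 named and Col6a3, beside 12.4% of all genes. The median log2 fold change was 1.54 for the 19 members and 0.06 for all genes. Among the 6 members with at least 10 counts in every library it was 0.058, beside 0.051 for all such genes.

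In CT db libraries A to D, Col4a1 was at 4.24, 1.71, 2.21 and 1.92 CPM and Col4a2 at 2.54, 0.428, 2.76 and 2.47 CPM, each below the 3 CT ob libraries. The log2 fold changes of CT ob against CT db were 3.60 (SE 0.85, edgeR adjusted p = 0.0280) for Col4a1 and 3.33 (SE 0.79, edgeR adjusted p = 0.0288) for Col4a2. Without library B of CT ob these were 2.05 and 1.73, with edgeR adjusted p-values of 0.133 and 0.160. The CT ob libraries A and C, which remained, were still above the 4 CT db libraries for both genes.

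Col12a1 was at 5.09, 3.21, 1.66 and 1.92 CPM in CT db, below the 7.77 CPM of the lowest CT ob library. Its log2 fold change was 1.87 (SE 0.45, edgeR adjusted p = 0.0300), and 1.64 with an adjusted p of 0.0802 without library A of CT ob. Col16a1 was at 5.37, 2.78, 1.93 and 1.65 CPM in CT db, with library A just below the lowest CT ob library at 5.77 CPM. Its log2 fold change was 2.41 (SE 0.60, edgeR adjusted p = 0.0332), and 1.52 with an adjusted p of 0.146 without library A of CT ob.

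Col6a3 was at 16.6, 20.6 and 19.6 CPM in CT ob, above the 10.1 CPM of the highest CT db library, with a log2 fold change of 1.36 (SE 0.40) and adjusted p-values of 0.0544 by edgeR and 0.0183 by DESeq2. Col18a1 was at 1.13, 0, 3.59 and 0.274 CPM in CT db, with a log2 fold change of 3.78 (SE 1.25) and adjusted p-values of 0.0767 by edgeR and 0.123 by DESeq2. Col4a6 was at 3.28, 8.52 and 15.1 CPM in CT ob and at 3.67, 3.64, 1.66 and 2.19 CPM in CT db, which overlapped at library A of CT ob, with a log2 fold change of 1.64 (SE 0.58, edgeR adjusted p = 0.0923). The groups did not overlap for 7 members, 6 above and 1 below in CT ob, where 21.2% of all genes showed no overlap. The member below was Col27a1, at 15.4 to 18.8 CPM in CT ob and 23.4 to 36.8 CPM in CT db (log2 fold change -0.82, SE 0.47, edgeR adjusted p = 0.270).

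The calls in the lean controls depended on single libraries. No member was called by edgeR without library B or D of CT db or library C of CT ob, when the calls over all genes were 138, 201 and 112 in place of 834. The members called were 1 of 20 without library C of CT db, 2 of 21 without library A of CT ob and 2 of 20 without library B of CT ob. Over all genes the calls in these fits were 482 of 12603, 376 of 12970 and 838 of 13078. Library totals overlapped between the controls, at 3624237 to 4840714 counts in CT db and 3664219 to 4847166 counts in CT ob.

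Between the mutants, edgeR called 0 of 19 members, where 0.0159% of all genes were called, and DESeq2 called 0, where 0.572% of all genes were called. An unadjusted p under 0.05 was found for 1 member, Col12a1, beside 8.18% of all genes. Col12a1 was at 2.57, 0.432, 1.74 and 1.26 CPM in db/db, below the 3 ob/ob libraries, with a log2 fold change of 1.33 (SE 0.51, edgeR adjusted p = 0.462). It was the 1 member of 19 whose groups did not overlap, beside 9.92% of all genes. For Col4a1 the log2 fold change of ob/ob against db/db was 0.15 (SE 0.95), for Col4a2 -0.35 (SE 0.88) and for Col16a1 0.06 (SE 0.69). The median over the 19 members was 0.01, beside -0.01 over all genes. Over the 6 members with at least 10 counts in every library it was -0.30, beside 0.002 for all such genes.

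The interaction asked whether the effect of ob/ob differed from that of db/db, and edgeR called 0 of 19 members, where 0.0% of all genes were called. Unadjusted p-values under 0.05 were found for 4 members, Col4a1, Col4a2, Col16a1 and Col18a1, beside 8.11% of all genes, and DESeq2 called 0 members beside 0.572% of all genes. The interaction values were -3.45 (SE 1.30) for Col4a1, -3.68 (SE 1.2015) for Col4a2, -2.35 (SE 0.93) for Col16a1 and -5.38 (SE 1.79) for Col18a1, with edgeR adjusted p-values from 0.464 to 0.556. For Col18a1 library A of db/db stood at 17.99 CPM against 1.30, 0 and 1.57 CPM in libraries B to D, and without it the interaction value was -3.05. Without library B of CT ob the value was -1.89 for Col4a1 and -2.07 for Col4a2, and without library A of CT ob it was -1.46 for Col16a1.

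**Figure D5:**
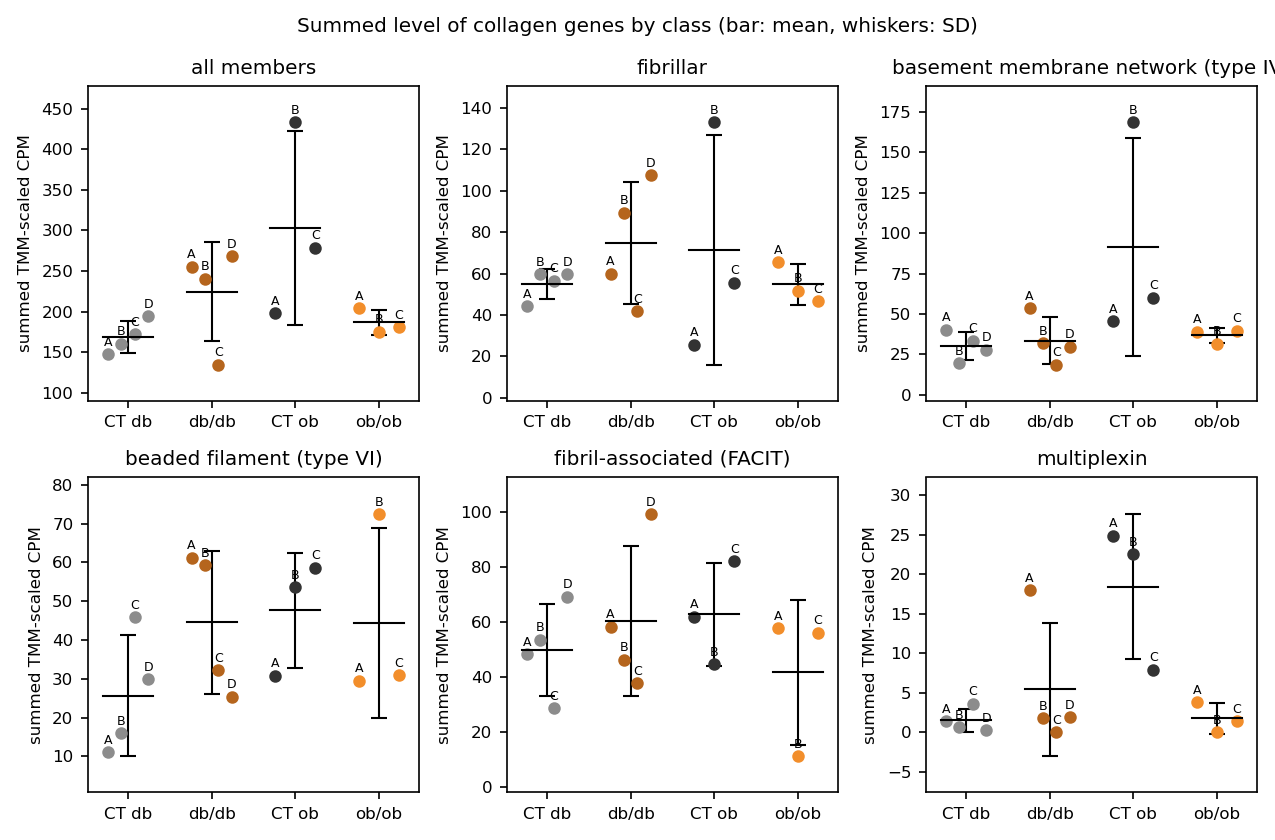
Summed CPM of all members and of 5 classes in each library, with letters naming the libraries, bars the group means and whiskers the SD. Library B of CT ob is highest for all members and for type IV, and the multiplexin sum is at 7.89 CPM or more in the 3 CT ob libraries and in library A of db/db and at 3.82 CPM or less elsewhere.

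By class, type IV summed to 45.5, 168.5 and 60.0 CPM in libraries A to C of CT ob and to 18.7 to 53.6 CPM in the other 11 libraries. Type VI summed to 25.7 ± 15.6 CPM in CT db (SD, n = 4), 44.5 ± 18.4 in db/db, 47.7 ± 14.8 in CT ob (SD, n = 3) and 44.3 ± 24.4 CPM in ob/ob. The fibrillar class had 133.1 CPM in library B of CT ob against 25.6 and 55.6 CPM in libraries A and C. The FACIT class had 11.3 CPM in library B of ob/ob, where Col9a2 was at 6.96 CPM, and 28.7 to 99.2 CPM in the other 13 libraries. Multiplexins summed to 24.9, 22.6 and 7.89 CPM in CT ob and to at most 3.82 CPM in ob/ob. Transmembrane collagens summed to at most 11.3 CPM, anchoring fibril and other genes to at most 6.42 CPM and short-chain genes to at most 4.76 CPM in any library.

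Markers of other cell types were set beside these values. The 6 endothelial markers summed to 26.6, 40.9 and 23.0 CPM in libraries A to C of CT ob and to 4.52 to 14.1 CPM in the other 11 libraries, so they were higher in the same group as Col4a1, Col4a2, Col12a1, Col16a1 and Col18a1. In library B of CT ob all 6 reached 3 counts, with 22 counts of Emcn, 17 of Cdh5, 38 of Pecam1 and 16 of Tek. In library A, Kdr held 91 counts while Emcn was at 0 and Cdh5 at 1 count, and in library C Emcn was at 0 and Cdh5 at 1 count. Of the list, 3 genes were tested in the lean controls and 3 in the ob model. EdgeR called 0 of them, beside 6.63% and 0.0% of all genes. In the lean controls DESeq2 called Egfl7 (edgeR log2 1.60, adjusted p = 0.0612 by edgeR and 0.0355 by DESeq2), beside 12.4% of all genes. Pecam1 (1.55) and Cdh5 (0.40) were also higher in CT ob. Kdr (-2.55), Pecam1 (-0.91) and Egfl7 (-0.86) were lower in ob/ob than in CT ob, with edgeR adjusted p-values of 0.539 or more. Smooth muscle and pericyte markers summed to 15.04, 46.6 and 32.3 CPM in CT ob and to 3.92 to 34.7 CPM elsewhere. Within that list edgeR called Cspg4, a pericyte proteoglycan, higher in CT ob at 7.52, 6.02 and 13.4 CPM against 0.428 to 2.83 CPM in CT db (log2 2.58, SE 0.53, edgeR adjusted p = 0.0167). The stroma and fibroblast markers summed to 25.1, 48.6 and 34.3 CPM in CT ob and 16.8 to 93.4 CPM elsewhere. Among them Pdgfra, a growth factor receptor of stromal cells, was at 3.65, 3.20 and 5.07 CPM in ob/ob and at 18.3, 12.8 and 11.0 CPM in CT ob (log2 -1.82, SE 0.38, adjusted p = 0.539 by edgeR and 0.0132 by DESeq2). The other members tested in the ob model went both ways. Ogn (log2 0.73) and Mfap5 (0.31) were higher in ob/ob, and Dcn (-0.50) and Lum (-0.12) lower, with edgeR adjusted p-values of 0.754 or more. Fshr, the granulosa receptor for follicle-stimulating hormone, was lower in CT ob, at 36.6, 120.6 and 91.6 CPM against 184.8 to 333.4 CPM in CT db (log2 -1.72, SE 0.35, edgeR adjusted p = 0.0163). Of the 8 granulosa markers, edgeR called Fshr alone in the lean controls, and the others went both ways. Inhba (log2 -3.42), Cyp19a1 (-1.53) and Nr5a2 (-0.22) were lower in CT ob, and Amh (1.31), Foxl2 (0.57), Inha (0.06) and Hsd17b1 (0.01) higher. Oocyte markers were highest in library A of CT ob at 944 CPM, the library in which Col16a1 and Col18a1 were highest. The next highest oocyte sum, 585 CPM, was in library A of ob/ob, where Col16a1 was at 3.13 and Col18a1 at 3.82 CPM. In library A of db/db, where Col18a1 and Col6a2 were highest among the db/db libraries, surface epithelium markers summed to 46.3 CPM against 0.565 to 6.25 CPM elsewhere, and stroma and fibroblast markers had their highest sum. That library also had the highest immune sum, 23.6 CPM, and a theca sum of 1059 CPM. The theca list was higher still in library C of CT db (1153 CPM) and library C of CT ob (1373 CPM). The part of these cell types in the collagen values was not tested.

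Genes that make, process, bind and cut collagen were examined as 4 lists. Of the 19 genes for collagen folding and modification, edgeR called 0 of 18 tested in the db model, 0 of 19 in the ob model and 3 of 19 in the lean controls, beside 0.00884%, 0.0% and 6.63% of all genes. P4hb, a subunit of prolyl hydroxylase, and Plod1, a lysyl hydroxylase, rose in CT ob against CT db by log2 0.60 (SE 0.16, edgeR adjusted p = 0.0423) and 1.13 (SE 0.29, edgeR adjusted p = 0.0358). Plod2, the lysyl hydroxylase of telopeptides, was at 137, 190 and 177 CPM in CT ob and at 345, 537, 680 and 696 CPM in CT db, and its log2 value fell by 1.75 (SE 0.36, edgeR adjusted p = 0.0167). DESeq2 called 0 genes of this list in the db model, 1 in the ob model (Colgalt2) and 4 in the lean controls, beside 0.389%, 0.692% and 12.4% of all genes. For 0, 2 and 6 genes the unadjusted p was under 0.05, beside 7.59%, 8.16% and 26.9% of all genes.

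Of the 13 genes for procollagen processing and cross-linking, 7 were tested in each fit and edgeR called 0 in each comparison. The edgeR shares of all genes were 0.00884% in the db model, 0.0% in the ob model and 6.63% in the lean controls. In that order DESeq2 called 1, 0 and 0 genes of the list, beside 0.389%, 0.692% and 12.4% of all genes. For the interaction DESeq2 called 1, beside 0.572% of all genes. Pcolce, an enhancer of procollagen C-proteinase, was at 47.6, 19.9, 12.6 and 32.7 CPM in db/db and at 6.22, 10.1, 12.4 and 9.05 CPM in CT db. The groups did not overlap, with library C of db/db just above the highest control, as it was for Col11a1. The log2 fold change was 1.57 (SE 0.37), with adjusted p-values of 0.363 by edgeR and 0.0298 by DESeq2, and DESeq2 also called its interaction (-2.56, SE 0.58, DESeq2 adjusted p = 0.0118, edgeR adjusted p = 0.221). Unadjusted p-values under 0.05 were found for 1 gene of the list in the db model, 3 in the ob model and 2 in the lean controls, beside 7.59%, 8.16% and 26.9% of all genes. Among the 3 in the ob model, Pcolce was lower in ob/ob (log2 -0.996, SE 0.39), where Col11a1 was higher. Loxl1 (2.19) and Loxl2 (3.03) were higher in ob/ob. The edgeR adjusted p-values of the 3 genes were 0.561 to 0.604.

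Of the 9 collagen receptors, edgeR called 0 of 6 tested in the db model, 0 of 7 in the ob model and 2 of 7 in the lean controls, Ddr1 and Mrc2, both higher in CT ob. Ddr1, a receptor tyrosine kinase for collagen, was at 74.6, 83.7 and 61.4 CPM in CT ob and at 31.7 to 57.4 CPM in CT db (log2 0.78, SE 0.21, edgeR adjusted p = 0.0397). Of the 7 collagen-degrading proteases, edgeR called 0 of 2 tested in the db model, 0 of 3 in the ob model and 2 of 3 in the lean controls, Mmp2 and Mmp14. Mmp2, the gelatinase that cuts type IV collagen, was at 42.0, 10.5 and 19.2 CPM in CT ob and at 2.54, 2.78, 1.38 and 0 CPM in CT db (log2 3.79, SE 0.97, edgeR adjusted p = 0.0346), and Mmp14 differed by log2 1.14 (SE 0.22, edgeR adjusted p = 0.0134). Unadjusted p-values under 0.05 in the db model, the ob model and the lean controls were found for 0, 3 and 3 receptors and for 0, 1 and 2 proteases, and DESeq2 called 0, 0 and 3 receptors and 0, 0 and 2 proteases. Itga2, which DESeq2 called in the lean controls beside Ddr1 and Mrc2, was lower in CT ob (edgeR log2 -1.92, DESeq2 adjusted p = 0.0366). In the same order of comparisons, the shares of all genes were 0.00884%, 0.0% and 6.63% by edgeR. They were 7.59%, 8.16% and 26.9% by unadjusted p and 0.389%, 0.692% and 12.4% by DESeq2.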

How the data were processed

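RNA of about 50 pooled GCs per library was captured by its poly-A tail, amplified, made into libraries without molecular identifiers and read as single reads of 75 bases. The deposited table holds raw counts of reads per gene made by the authors. The submitters' processing notes name Trim Galore (0.6.2), HISAT2 (2.1.0) and GRCm38, while the study's methods name cutadapt, STAR, featureCounts and GRCm39, and the conflict was not settled. The strand and multimapping settings were not given in the sources used here. Columns were given to groups by their names, read with the study's supplementary sample summary, and carried no replicate number. Of the 55414 genes, 98.8% were matched by identifier to the GENCODE vM39 annotation of GRCm39, from which positions, exon lengths and upstream sequences were taken.

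Counts were tested in R (4.3.3) with edgeR (4.0.16), using TMM scaling, filterByExpr (minimum count 10, minimum total 15), the quasi-likelihood test and Benjamini-Hochberg adjustment over all genes tested, at 0.05. The db and ob models were fitted alone, and the lean controls, the mutants and the interaction came from 1 fit of 14 libraries. DESeq2 (1.42.0), other scalings, other filters and leaving out each library were the alternatives. SE was the size of the log2 fold change divided by the square root of F. The code was tested on simulated counts, in which edgeR called, of 200 genes changed 2-fold, 63% between db/db and CT db, 13% between ob/ob and CT ob and 36.5% between the lean controls, and of those changed 4-fold 96%, 81.5% and 83.5%. The simulated counts followed the dispersion trend, with the same fold in every library of a group, and lacked the spread of single genes. They checked the code and do not give the share of collagen changes that could be found here. Exact permutation tests were two-sided. The floor of detection was 3 counts. Named members were the 10 highest per kb in the lean controls and those with an unadjusted p under 0.05 or a call by edgeR or DESeq2 in any comparison. Partner chains, Pcolce and the list members given with values beside them were chosen after their values were seen. The members and lists were chosen with earlier results of these data known.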

Additional observations from a re-analysis of the deposited data

Results flagged for a closer look

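In groups of 4 libraries, a library was marked when its gap to the nearest of the others, divided by the range of the group, exceeded the critical value of Dixon's test. Of 44 groups examined, 4 were marked, and chance marks about 1 in 20 groups. Col18a1 in db/db had a ratio of 0.913, with library A at 17.99 CPM against 0 to 1.57 CPM in the others. The multiplexin sum, which holds Col18a1, had a ratio of 0.895 in db/db for the same library. Col4a2 in CT db had a ratio of 0.875, with library B at 0.428 CPM against 2.47 to 2.76 CPM in the others. The short-chain sum in CT db had a ratio of 0.993, with library B at 1.499 CPM against 0.274 to 0.283 CPM in the others, values that rest on a few counts.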

How the results depend on the processing

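Under the alternatives run, no direction was reversed for the summed levels or for the fold changes of members with an unadjusted p under 0.05. Of the 89 fold changes over all members tested, 41 changed sign when some library was left out, each with an edgeR adjusted p of 0.264 or more in the full fit. These were 7 of 11 in the db model, 11 of 21 in the ob model, 5 of 19 in the lean controls, 10 of 19 between the mutants and 8 of 19 in the interaction. Col1a2, for example, ranged from -0.52 to 2.098 in the lean controls and from -1.89 to 0.73 in the ob model. Tested by DESeq2, 1 collagen gene was called between db/db and CT db and 3 between ob/ob and CT ob. With no filter on low counts, edgeR called 1 in the db model (Col11a1), 7 in the ob model, 10 in the lean controls and 4 in the interaction, out of 44, while the calls over all genes were 270, 359, 1727 and 329 in place of 1, 0, 834 and 0, and the cause was not tested. With at least 10 counts in every library, 1 of 6 was called in the lean controls, Col6a3, beside 1025 of 9643 over all genes. The 4 genes called before were no longer tested under that filter. Scaling by relative log expression or the upper quartile kept the same 4 genes in the lean controls, and 1 fit of all libraries left 0 calls in the db and ob models. Leaving out 1 library at a time gave 0 to 1 calls in the db model, with 1 (Col11a1) without library C of db/db, and 0 to 5 in the lean controls. There the count was 0 without library B or D of CT db or C of CT ob, 1 (Col4a2) without library C of CT db, 2 (Col4a1, Col4a2) without library A of CT ob and 2 (Col12a1, Col16a1) without library B of CT ob. The summed log2 ratio ranged from 0.32 to 0.59 for db/db and from -0.93 to -0.35 for ob/ob when libraries were left out. At these depths 31 members reached 3 counts in some libraries only, and the part of depth in that was not tested beyond thinning, after which libraries still ranged from 15 to 28 members. No paired analysis was possible because the columns carry no replicate number.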
